A study of Homo sapiens with 6 samples.

Results

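Broad regions of the histone variant H2A.Z were described on the 22 autosomes of HEK293T cells, a transformed human line of embryonic kidney origin. A broad region was a stretch of at least 1500 bp, measured as end minus start, left after overlapping or touching peaks of ubiquitylated and of total H2A.Z had been merged. Of 190587 autosomal merged regions, 2832 met this width; the whole set with the sex chromosomes held 198179, and 87 further wide regions on X or Y were left out by the rule. Peak positions chose the members, so their widths, peak numbers and peak coverage are descriptions and were not tested.

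All 6 samples came from HEK293T cells. Per the labels' protocols, H2A.Z-1 with a C-terminal Flag-BirA fusion was co-transfected with ubiquitin bearing an N-terminal AviTag, at 3 parts of the histone plasmid to 1 part of the ubiquitin plasmid. Cells were taken 48 hours later and their nuclei received micrococcal nuclease for 30 minutes. The 3 groups of 2 samples differ, as far as the labels say, in the pull-down alone: streptavidin-agarose for ubiquitylated H2A.Z, Flag M2-agarose for total tagged H2A.Z, and an antibody for histone H3. Both H2A.Z forms therefore stem from a transfected histone in 1 cell line, and how streptavidin and Flag beads differ as reagents cannot be told apart from how the 2 forms differ. The H3 samples enter no comparison here. The deposited lists cover each group as a whole, so there is no value per sample, the read depth is unknown, and replicate spread enters only through the authors' irreproducible discovery rate (IDR, how poorly a peak repeats between replicates) and false discovery rate (FDR). No test of a difference was therefore made: shares carry Wilson intervals, which cover counting error only, and FDR values are the authors'. Whether the 2 replicates of a group were grown as separate cultures is not given.

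H2A.Z replaces H2A in a part of all nucleosomes and is best known from the nucleosomes that flank active or poised promoters and from enhancers. Its C-terminal tail can carry a single ubiquitin, a mark placed by the RING1 ubiquitin ligases of Polycomb repressive complex 1 and linked to silent chromatin such as the inactive X chromosome. Runs of 1500 bp or more are longer than a few nucleosomes. The genes at these regions and their DNA sequence were not analysed here, and regions are named by their hg19 position.

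The broad regions made up 1.49% of autosomal merged regions but 5.80 Mb of the 78.8 Mb that merged regions covered. Their median width was 1837 bp (quartiles 1632 and 2215 bp) against 314 bp over all autosomal merged regions, and the widest spanned 17946 bp. Widths fell off steeply, with 1770 regions under 2000 bp, 887 from 2000 to under 3000 bp, 150 from 3000 to under 5000 bp and 25 of 5000 bp or more. The threshold cut through a continuous distribution: 9 regions measured exactly 1500 bp and 3 were 1 bp short of it. Just inside it lay chr1:228076913-228078412, chr5:176106374-176107873, chr6:14803959-14805458, chr7:129420245-129421744 and chr10:60935564-60937063, all 1500 bp wide. Of these the authors' deposited table held the chromosome 7 region alone, with less ubiquitylated H2A.Z (-0.51, FDR 0.001; fold changes are read as log2 values, their base not being stated). Just outside lay chr5:94619587-94621085, chr8:26722685-26724183 and chr18:34898761-34900259, each 1 bp too short, then chr7:36007041-36008538 and chr9:96459667-96461164, each 2 bp too short. Of these the authors' deposited table held the chromosome 8 region (0.42, FDR 0.014) and the chromosome 7 region (0.46, FDR 0.0047), both with more ubiquitylated H2A.Z.

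Most broad regions held peaks of both H2A.Z forms. Peaks of both lists lay in 2562 of the 2832 regions (90.5%, Wilson 95% interval 89.3 to 91.5%), ubiquitylated peaks alone in 256 (9.04%) and total peaks alone in 14 (0.494%). Over all autosomal merged regions these shares were 41.9, 28.5 and 29.5%. Merging the 2 lists itself widens regions that hold both, so a high share of both followed in part from the rule. Most regions held more than 1 peak over the 2 lists: 270 regions consisted of 1 peak, 1146 of 2 peaks, 955 of 3 and 461 of 4 or more. The 1146 held 1 peak of each list, often 1 inside the other, so these numbers do not count chained peaks. Width seldom arose from chaining alone, since 2480 regions (87.6%) held a single peak of at least 1500 bp. Such a wide peak was present in the ubiquitylated list alone in 1192 regions, in the total list alone in 621, in both in 667 and in neither in 352.

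Ubiquitylated peaks covered more of a broad region than total peaks did. The median region had 97.7% of its bases under ubiquitylated peaks (quartiles 88.6 and 100%) and 88.6% under total peaks (quartiles 61.3 and 98.7%), with 75.3% under both. Among the 2562 regions with both forms, ubiquitylated peaks covered more bases in 1523 (59.4%) and total peaks in 1034 (40.4%). Where each list gave 1 peak (1146 regions), the ubiquitylated peak contained the total peak in 425 and lay inside it in 227, while in 494 the 2 peaks were staggered. In the 425, the ubiquitylated peak reached a median of 156 bp beyond the total peak on its left and 152 bp on its right. Autosomal peaks of at least 1500 bp numbered 1875 of 137421 in the ubiquitylated list (1.36%) and 1307 of 139005 in the total list (0.940%). The median IDR of these wide peaks was lower than that of their whole list, 0.000493 against 0.00137 for ubiquitylated and 0.00195 against 0.00334 for total H2A.Z.

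**Figure D1:**
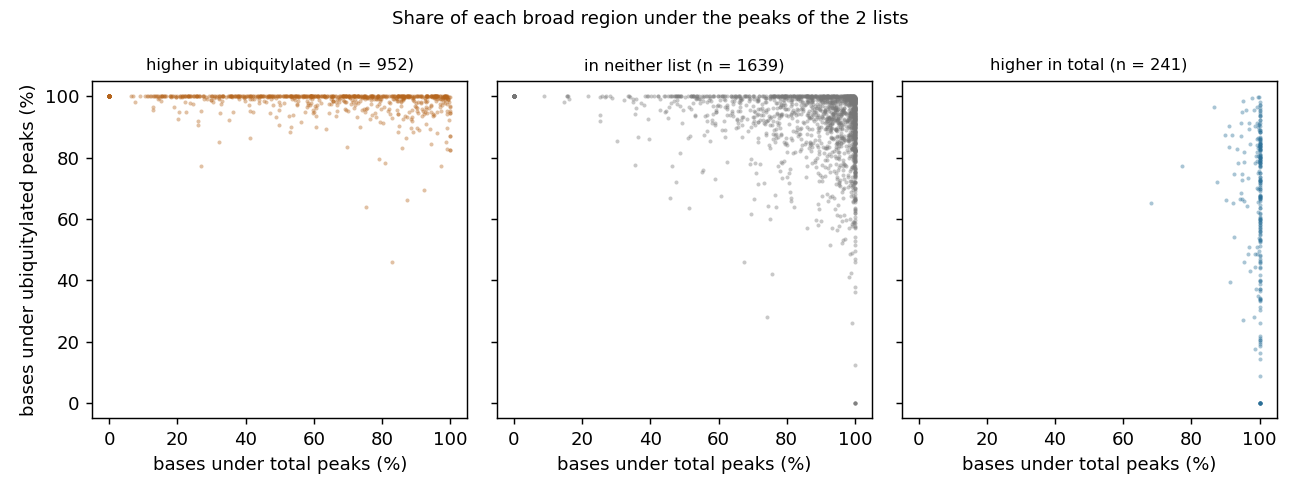
Each point is 1 broad region; the axes give the percent of its bases under total H2A.Z peaks (horizontal) and under ubiquitylated H2A.Z peaks (vertical), in panels for regions higher in ubiquitylated H2A.Z, in neither differential list, and higher in total H2A.Z. Regions higher in ubiquitylated H2A.Z line the upper edge (median ubiquitylated coverage 100%, total 55.7%), and regions higher in total line the right edge (71.9% and 100%).

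The authors compared the 2 pull-downs region by region, and a region is referred to as called where their differential lists hold it at an FDR of at most 0.05. Broad regions were called more often than regions at large and mostly towards ubiquitylated H2A.Z. Wider regions can hold more reads and so be called more easily. How far this shaped the shares could not be checked without values per library. In all, 952 (33.6%, Wilson interval 31.9 to 35.4%) were higher in ubiquitylated and 241 (8.51%, 7.54 to 9.59%) higher in total H2A.Z, and 1639 were in neither list. Over all autosomal merged regions the background was 9.23% higher in ubiquitylated and 12.4% higher in total. Among called broad regions 79.8% (77.4 to 82%) were thus higher in ubiquitylated H2A.Z, against 42.6% of all called autosomal regions and 53.6% of those called among the 43083 regions of 500 to under 1500 bp. In regions of 500 to under 1500 bp the shares were 18.7 and 16.1%, so broad regions had more of the first and fewer of the second. At an FDR of at most 0.01, 760 broad regions (26.8%, background 5.16%) had more ubiquitylated and 193 (6.81%, background 7.41%) more total H2A.Z.

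The direction went with which list supplied the wide peak, and since peak width and fold change come from the same libraries, it is given as a description. Where only the ubiquitylated list held a peak of at least 1500 bp, 719 of 1192 regions were higher in ubiquitylated and 6 the other way. Where only the total list did, 17 of 621 were higher in ubiquitylated and 187 the other way. Of the 667 regions with such a peak in both lists, 165 (24.7%) were higher in ubiquitylated and 31 (4.65%) the other way, so 84.2% of the called ones (78.4 to 88.6%) were higher in ubiquitylated. Chosen by total peaks alone, the 1288 regions with a wide total peak had 182 (14.1%) higher in ubiquitylated and 218 (16.9%) higher in total H2A.Z. Over all autosomal merged regions these shares were 9.23 and 12.4%, and from 500 to under 1500 bp 18.7 and 16.1%. Of the called regions with a wide total peak, 45.5% were higher in ubiquitylated. By place this was 78.3% (71.3 to 83.9%) in the outer 10 Mb of the chromosomes, where it was 66.5% over all called regions and 74.6% over those of 500 to under 1500 bp. Elsewhere it was 23.4% (18.5 to 29.2%), against 31.9% over all called regions there and 41.2% over those of 500 to under 1500 bp.

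Fold changes are listed for called regions alone, so the 1639 uncalled broad regions have none. The authors' deposited table gave regions with more ubiquitylated H2A.Z a median log2 fold change of 0.46 (quartiles 0.39 and 0.59, highest 1.71). The authors' deposited table put regions on the total side at -0.47 (quartiles -0.54 and -0.39, extreme -0.98). Over all autosomal regions the authors' deposited table gave medians of 0.68 and -0.76. These sets are not matched, since the smallest change called differs with width: in the authors' deposited table it was 0.52 (log2) on the ubiquitylated side under 200 bp and 0.32 from 1500 to under 2000 bp. A change of at least 2-fold was reached by 13 broad regions, all higher in ubiquitylated H2A.Z (0.459%, background 1.43%, or 3.89% in either direction). None of 2832 was higher in total H2A.Z by that much, which allows a share of up to 0.106%, taken as 3 counts of 2832 (background 2.46%). Within the called broad regions width and size of change were barely related (Spearman's rho -0.02 over 952 regions and -0.05 over 241, across regions of the same libraries).

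Over all autosomes, calls towards ubiquitylated H2A.Z grew more frequent with width, and above the threshold calls towards total H2A.Z grew less frequent. The share in neither list fell from 87.6% under 200 bp to 44.0% at 5000 bp or more. How far the ease of calling wider regions shaped this was not tested. From 1500 to under 2000 bp, 29.7% of regions were higher in ubiquitylated and 10.6% the other way. From 2000 to under 3000 bp these shares were 38 and 5.41%, and from 3000 to under 5000 bp they were 50 and 3.33%. Of the 25 regions of 5000 bp or more, 14 were higher in ubiquitylated and none the other way. That allows up to 12% for the latter, taken as 3 counts of 25 (Wilson upper limit 13.3%). Below the threshold the share higher in total H2A.Z was at its highest in regions of 500 to under 1000 bp (16.5%) and stood at 14.1% from 1000 to under 1500 bp. Place mattered too. Outside the outer 10 Mb, 18.8% from 1500 to under 2000 bp were higher in ubiquitylated and 20.9% the other way. From 1000 to under 1500 bp there it was 18.5 and 23.4%, and from 2000 to under 3000 bp 25.1 and 11.7%. In the outer 10 Mb, regions from 1500 to under 2000 bp had 37.9 and 2.96%. With only regions that held both forms, over all autosomes, the width classes above the threshold gave 23.6, 33.7, 47.6 and 54.2% higher in ubiquitylated H2A.Z. The shares higher in total H2A.Z were 11.5, 5.60, 3.50 and 0%, and the last class held 24 regions. Over all autosomal regions with both forms the 2 directions had 5.89 and 7.72%, and from 500 to under 1500 bp 10.7 and 13.2%.

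**Figure D2:**
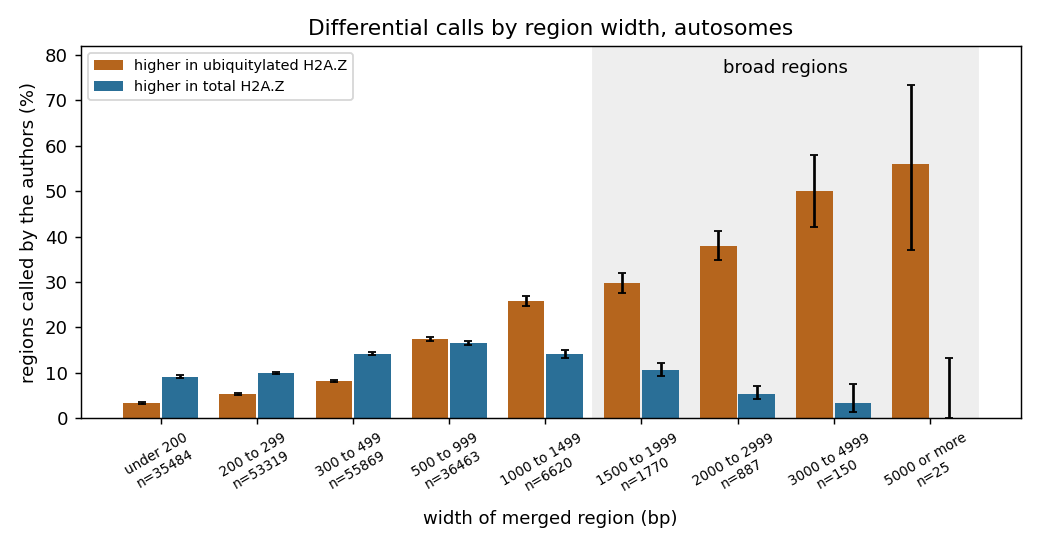
Bars give the percent of autosomal merged regions of each width class (horizontal axis, bp, with the number of regions) that the authors called higher in ubiquitylated or in total H2A.Z; error bars are Wilson 95% intervals and grey marks the broad regions. The share higher in ubiquitylated H2A.Z runs from 3.30% under 200 bp to 56.0% at 5000 bp or more, while the share higher in total is highest from 500 to under 1000 bp.

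The 10 broad regions of lowest FDR on the ubiquitylated side were each covered by 1 ubiquitylated peak over at least 94.8% of their length. First was chr19:14759709-14761460, 1752 bp without a total peak, for which the authors' deposited table gives a log2 fold change of 1.71 (FDR 4.4e-24). It was followed by chr5:1198561-1200177, where a total peak covered 12.9% of the bases (1.48 in the authors' deposited table, FDR 1.3e-20). The third, chr1:2614396-2620006, was 5611 bp wide, with 1 ubiquitylated peak over its full length and 4 total peaks over 24.5% of it (0.80 in the authors' deposited table, FDR 3e-15). These regions differ in setting: the chromosome 5 and chromosome 1 regions lie in dense stretches with 75 and 36 other merged regions within 50 kb, and the chromosome 19 region has 7. The fourth, chr3:168562799-168564372, stood alone, 299730 bp from the nearest merged region (1.05 in the authors' deposited table, FDR 7e-14). The other 6 were chr1:1529215-1532763, chr7:56885503-56896803, chr10:135483848-135485536, chr1:3412706-3415552, chr4:994001-996242 and chr4:190998827-191000483. The authors' deposited table puts them between 0.79 and 1.05 on the log2 scale. Of the 10 regions, 6 held no total peak at all and 7 lay within 10 Mb of a chromosome end. By size of change, 4 of the 10 were also among the 10 highest, which further held chr1:92947768-92949373 (1.18), chr21:46843681-46845279 (1.13), chr16:1240358-1241988 (1.09), chr10:124895843-124897395 (1.09), chr7:1784245-1785847 (1.08) and chr17:48048696-48050710 (1.03, all as the authors' deposited table has them). None of these 6 held a total peak.

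On the total side the leading 10 regions were 1514 to 2254 bp wide, and 9 of them still held a ubiquitylated peak. The lowest FDR belonged to chr4:66533984-66535675, 1692 bp under 1 total peak, with a ubiquitylated peak over 16.4% of it (-0.98 in the authors' deposited table, FDR 2e-11). At chr11:119191174-119193024 2 ubiquitylated peaks covered 50.7% of 1851 bp (-0.85 in the authors' deposited table, FDR 8.8e-09). At chr9:131180933-131182628 the ubiquitylated share was 8.73% (-0.81 in the authors' deposited table, FDR 2.2e-08). In each of the 10 a single total peak spanned at least 99.1% of the region, while 1 of them, chr22:41416956-41418533, had no ubiquitylated peak (-0.88 in the authors' deposited table, FDR 9.6e-08). The other 6 were chr1:16970600-16972151, chr10:52833287-52834800, chr19:35738623-35740601, chr16:83986287-83987821, chr7:116164665-116166918 and chr7:138792805-138794823. The authors' deposited table puts them between -0.79 and -0.64. Of the 10 regions, 7 lay more than 10 Mb from a chromosome end. The 10 largest changes added chr2:172961062-172962825 (-0.78), chr1:16481287-16482994 (-0.71) and chr12:81330333-81331869 (-0.71, again as the authors' deposited table has them).

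In regions with 1 form alone, calls went towards that form, as they did in smaller regions of the same kind. Of the 256 broad regions with ubiquitylated peaks only, 223 (87.1%) were called, all higher in ubiquitylated H2A.Z (median 0.63 by the authors' deposited table). Over all autosomal regions with ubiquitylated peaks only, 23.6% were called in that direction, and 57.1% of those of 500 to under 1500 bp. Of the called ones in these sets 99.4% went that way. The widest was chr22:20708679-20716245, 7567 bp under a single ubiquitylated peak with no total peak (0.79 in the authors' deposited table, FDR 1.8e-08). Next came chr16:16457073-16461728 (4656 bp), chr1:2608751-2612286 (3536 bp), chr19:1286999-1290230 (3232 bp) and chr1:3378760-3381927 (3168 bp). Of the 14 with total peaks only, 9 were called, all higher in total H2A.Z, and the widest were chr7:79081396-79083620 (2225 bp) and chr4:30720678-30722808 (2131 bp). Over all autosomal regions with total peaks only, 30.9% were called higher in total H2A.Z, and 60.9% of those of 500 to under 1500 bp. In regions with both forms the called direction followed the coverage: ubiquitylated peaks covered more bases in 685 of the 729 regions higher in ubiquitylated, and in 4 of the 232 higher in total H2A.Z. One unbroken ubiquitylated peak over 2 or more total peaks was found in 256 of those 729 regions (35.1%). Among all 2562 broad regions with both forms this was found in 605 (23.6%), and among the 1601 uncalled ones in 336. The mirror form, 1 total peak over 2 or more ubiquitylated peaks, was found in 108 of those 232 (46.6%). For the mirror form the numbers were 563 of the 2562, and 412 of the 1601 uncalled ones (25.7%).

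Position on the chromosome was not used to choose the members. Broad regions gathered near chromosome ends: 1692 (59.7%, Wilson interval 57.9 to 61.5%) lay in the outer 10 Mb, against 32.7% of all autosomal merged regions and 40.6% of those of 500 to under 1500 bp. Ends were taken from the first and last merged region of each chromosome, and the short-arm side of 5 chromosomes whose first region lies beyond 5 Mb (13, 14, 15, 21 and 22) was not counted as an end. Within 2 Mb of an end, 857 of 16896 merged regions (5.07%) were broad. The share was 2.63% from 2 to 5 Mb, 1.02% from 5 to 10 Mb, and between 0.715 and 1.03% farther in.

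The direction changed along the same axis. Within 2 Mb of an end, 415 broad regions were higher in ubiquitylated and 7 the other way, so 98.3% of called regions leaned to ubiquitylated. From 2 to 5 Mb it was 95.5%, from 5 to 10 Mb 72.4%, and more than 40 Mb from an end 99 against 91 regions (52.1%). Smaller regions showed the same slope at a lower level, with 83.5% of called regions of 500 to under 1500 bp higher in ubiquitylated within 2 Mb of an end and 40.1% beyond 40 Mb. Outside the outer 10 Mb, 1140 broad regions remained, of which 21.7% were higher in ubiquitylated and 17.7% the other way, so 55.0% of the called ones were higher in ubiquitylated. Over all autosomal regions in the same part of the chromosomes the background was 7.06% higher in ubiquitylated and 15.1% higher in total H2A.Z, so the share higher in total was near it. From 500 to under 1500 bp there the shares were 15.2 and 21.6%, so broad regions had more of the first and fewer of the second. Of the called regions there, 31.5% of those under 1500 bp and 41.2% of those of 500 to under 1500 bp were higher in ubiquitylated. Of the 241 broad regions higher in total H2A.Z, 39 (16.2%) lay in the outer 10 Mb, compared with 705 of the 952 higher in ubiquitylated (74.1%).

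**Figure D3:**
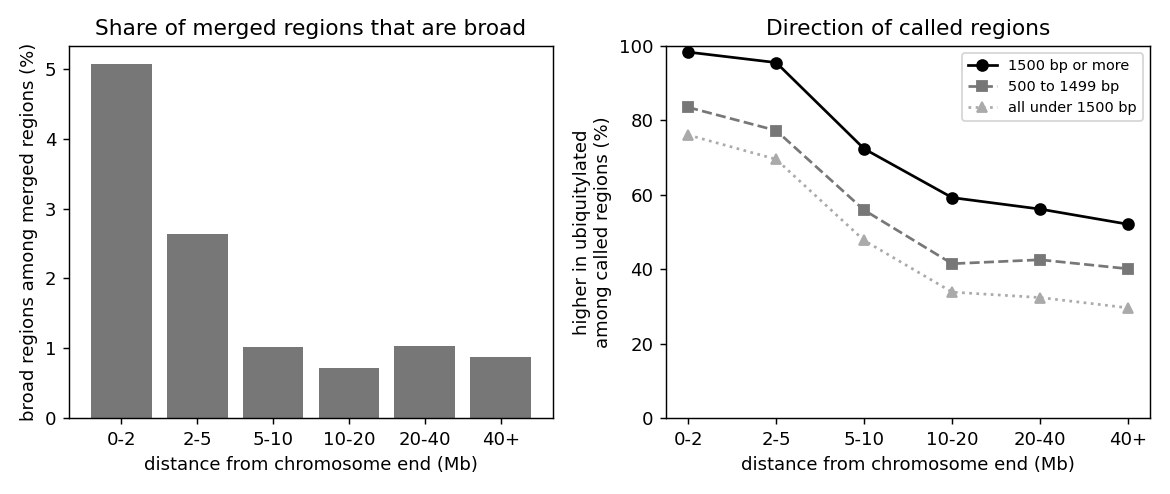
Left, the percent of autosomal merged regions that are broad; right, the percent of called regions higher in ubiquitylated H2A.Z for broad regions, regions of 500 to under 1500 bp and all regions under 1500 bp; the horizontal axis gives distance from the chromosome end in Mb. The share of broad regions is 5.07% within 2 Mb and at most 1.03% from 5 Mb on (left), the share of called broad regions higher in ubiquitylated H2A.Z falls from 98.3 to 52.1% (right), and the broad regions lie above the smaller ones in every distance class.

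Broad regions lay in denser surroundings than merged regions at large. The median distance to the nearest other merged region was 209 bp, against 763 bp over all autosomal regions and 411 bp in those of 500 to under 1500 bp. A neighbour lay within 1 kb of 84.2% of broad regions. Within 50 kb of its centre the median broad region had 39 other merged regions, against 19 over all and 25 from 500 to under 1500 bp. By place the gap was smaller. In the outer 10 Mb it was 48 for broad regions and 41 from 500 to under 1500 bp. Elsewhere it was 19 from 1500 to under 2000 bp and 20 from 2000 to under 3000 bp. Smaller regions there had 19 from 1000 to under 1500 bp and 16 from 500 to under 1000 bp. The 2 directions differed here: regions higher in ubiquitylated H2A.Z had a median of 43 such neighbours (quartiles 26 and 55) and regions higher in total H2A.Z 12 (quartiles 4 and 25). These 2 sets are not matched for place, with 74.1 and 16.2% in the outer 10 Mb. Outside the outer 10 Mb, the direction of called regions moved with density because calls towards total H2A.Z became rarer. With fewer than 10, 10 to under 25, 25 to under 50, and 50 or more neighbours, 19.0, 23.4, 23.3 and 19.1% were higher in ubiquitylated. The shares higher in total H2A.Z were 32.0, 16.0, 10.5 and 3.64%. From the lowest to the highest density, regions of 500 to under 1500 bp fell from 18.2 to 10.0% and from 29.4 to 9.83%. Where fewer than 10 other regions lay within 50 kb, 63 broad regions were higher in ubiquitylated and 106 the other way, and the 37.3% of called regions higher in ubiquitylated was close to the 38.2% of regions of 500 to under 1500 bp there. With 50 or more neighbours this share of called regions was 84.0% (65.3 to 93.6%, 21 against 4 regions) for broad and 50.5% for those smaller regions. In the outer 10 Mb at the lowest density, called broad regions were higher in ubiquitylated in 15 of 18 cases (83.3%, 60.8 to 94.2%), against 47.5% of called regions of 500 to under 1500 bp.

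The smaller regions around the members gave a reading from regions that the width rule did not choose, although from the same libraries. Within 50 kb of a broad region, 62.6% of the 8934 called regions under 1500 bp were higher in ubiquitylated H2A.Z (61.6 to 63.6%), against 35.5% of those with no broad region so near. Around broad regions higher in ubiquitylated it was 79.5%, around those in neither list 63.2% and around those higher in total H2A.Z 30.7%. Outside the outer 10 Mb the 3 values were 55.3, 40 and 27.3%, against 30.1% with no broad region near. Broad regions also had broad company: 1201 (42.4%) had another within 10 kb and 311 (11%) had none within 1 Mb. Of the 1201, 529 (44.0%) were higher in ubiquitylated and 19 (1.58%) the other way. Over all autosomal merged regions these shares were 9.23 and 12.4%, and from 500 to under 1500 bp 18.7 and 16.1%. In the outer 10 Mb they were 41.7 and 2.30% over all broad regions, near those of the 1201. From 500 to under 1500 bp there they were 23.8 and 8.10%. Of the 311 isolated ones, 60 (19.3%) were higher in ubiquitylated and 93 (29.9%) the other way. That was close to the 18.2 and 29.4% of regions of 500 to under 1500 bp in sparse parts. Those parts lie outside the outer 10 Mb, with fewer than 10 other regions within 50 kb.

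The densest 5 groups of broad regions within 1 Mb, and a sixth tied with the last of them, lay in the outer 10 Mb and held almost no region higher in total H2A.Z. The first spanned chr1:1960936-2949895 with 59 broad regions, of which 41 were higher in ubiquitylated and none the other way. Its smaller merged regions leaned the same way, with 163 against 8. The next was chr11:1801299-2801131 with 57 broad regions (24 higher in ubiquitylated, none in total). At chr10:134223881-135192490 there were 53 (31 and 1), at chr16:373795-1352031 49 (28 and none) and at chr14:104548218-105543735 47 (14 and none). The group at chr20:61172719-62174454 tied with the last, with 47 broad regions (27 and none). On chromosomes 11 and 14, 33 members of each group were in neither differential list.

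Chromosomes differed in how many broad regions they held. Chromosome 1 held the most (300) and chromosome 18 the fewest (11). As a share of merged regions, chromosome 21 came first (2.53%), followed by chromosomes 9 (2.27%), 16 (2.21%) and 22 (2.16%), while chromosomes 3, 13 and 18 were lowest (0.577, 0.611 and 0.555%). On each of the 22 autosomes broad regions with more ubiquitylated H2A.Z outnumbered the others called, from 27 against 2 on chromosome 21 and 78 against 9 on chromosome 16 to 12 against 11 on chromosome 3 and 16 against 15 on chromosome 6. The share of called regions higher in ubiquitylated exceeded that of regions of 500 to under 1500 bp on 21 of 22 chromosomes, by 21.9 ± 10.8 percentage points on average (SD over 22 chromosomes). The exception was chromosome 18, where it rests on 7 called broad regions (difference -0.20 points). Chromosomes were not split by which list supplied the wide peak. Over all autosomes, 719 of the 952 regions higher in ubiquitylated had a peak of at least 1500 bp in the ubiquitylated list alone. Among called regions with such a peak in the total list, 45.5% were higher in ubiquitylated. The width rule and the calls share the same libraries, so the counts by chromosome are a description.

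**Figure D4:**
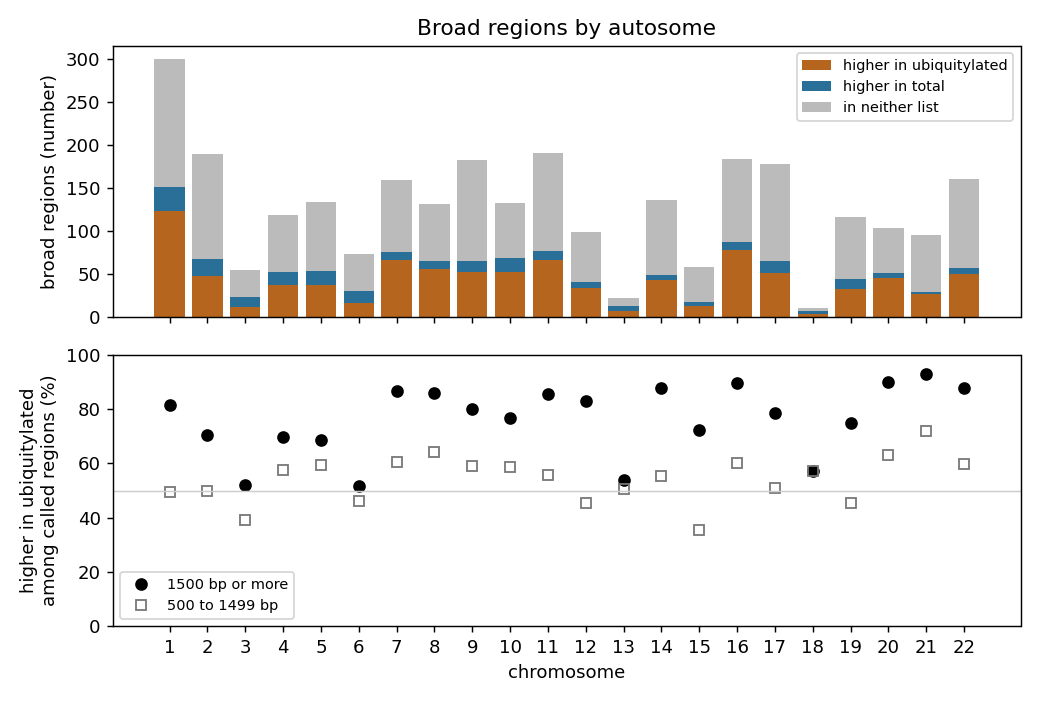
Top, the number of broad regions on each autosome, split by the authors' call; bottom, the percent of called regions higher in ubiquitylated H2A.Z for broad regions (filled circles) and regions of 500 to under 1500 bp (open squares), with a line at 50%. Broad regions lie above the smaller ones on every autosome except chromosome 18.

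The very widest regions were frequent beside region-free stretches, and 3 of 25 lay neither there nor near chromosome ends. Of these 25 regions of 5000 bp or more, 12 (48%) were in the outer 10 Mb. This was below the 59.7% of all broad regions and the 81.3% of those from 3000 to under 5000 bp. Another 10 (40%) lay within 5 Mb of the longest region-free stretch of their chromosome, against 5.65% of all broad regions. For chromosomes 13, 14, 15 and 22, which have none of 3 Mb, the distance was taken from their first region. A single stretch of chromosome 12 held 6 of these 10, and the other 4 were of 19 regions outside it. On most chromosomes such a stretch marks the unassembled centromere. How well reads map beside it was not tested, and the H3 samples were not compared there. The widest of all, chr12:34483921-34501866 (17946 bp), held 2 ubiquitylated and 3 total peaks that covered 99.2 and 90.6% of it. With chr12:34515623-34530550 (14928 bp), chr12:34504897-34513924 (9028 bp), chr12:34540627-34547836 (7210 bp) and chr12:34534134-34540504 (6371 bp), it belonged to 1 stretch of 130 kb, chr12:34428138-34558247. Broad regions numbered 10 there and filled 55.8% of it. The centre of the last of them lay 0.207 Mb from the region-free stretch. Of the 10, 1 was called, with more of the ubiquitylated form (the authors' deposited table gives 0.36), and 9 were in neither differential list.

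Other members of the 10 widest differed from these. The third widest, chr7:56885503-56896803 (11301 bp, 1.04 Mb from the region-free stretch of chromosome 7), had 1 ubiquitylated peak over its full length and 8 total peaks over 44.3% of it (0.79 in the authors' deposited table, FDR 2.4e-12). At chr14:104564695-104574925 (10231 bp) both forms covered most of the region, 98.9 and 89.1%, and the change was small (0.34 in the authors' deposited table, FDR 0.0055). At chr15:102298067-102305292 (7226 bp, 0.219 Mb from the last merged region of the chromosome) and chr1:228155415-228161980 (6566 bp) no difference was called. At the latter, total peaks covered 99.8% and ubiquitylated peaks 97.8%. Without the regions in the flanks of region-free stretches, 33.9% of the remaining 2672 broad regions were higher in ubiquitylated and 8.72% the other way, close to the values with them.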

How the data were processed

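Peaks of ubiquitylated H2A.Z (streptavidin) and total H2A.Z (Flag) in HEK293T cells were deposited by the authors as 1 list for each group, on hg19 per the submitters' processing notes, which also list Bowtie, SAMtools, MACS2 and edgeR, with no versions or settings. The value per peak deposited by the authors never exceeds 0.05 and was read as the IDR, a q-value-like measure. The authors also deposited regions with FDR and fold change of ubiquitylated over total H2A.Z, read as log2, with a normalization not given in the sources used here.

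Starts were raised by 1 base. Overlapping or touching peaks were joined, and bedtools 2.31.1 gave the same 198179 regions. All 42574 differential regions matched a merged region exactly. 1 start in scientific notation was read as a whole number. With no value per library, no test was made. Shares carry Wilson 95% intervals and medians stand alone. Where no region was found, the upper limit given in the text is 3 counts over the number of regions. Merging and matching were tested on simulated data. Named regions were the 10 widest, the 10 of lowest FDR and of largest change in each direction, the 5 on either side of the threshold and the 5 densest groups within 1 Mb, plus the regions with peaks of 1 list. The last were chosen after their values were seen. The width rule, the named sets and the alternatives were chosen with earlier results of these data known. Gene lists and gene starts were not analysed here. Python 3.11.15 was used with pandas 2.3.3, numpy 2.4.6 and scipy 1.17.1, and matplotlib 3.10.9 for the plots.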

Additional observations from a re-analysis of the deposited data

How the results depend on the processing

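No paired analysis was possible because each list gives 1 value for a region and none for a library; leaving out a replicate was not run on that account. Of 77 alternative values, 24 stayed within the interval of the reported value (for a number of regions, within 1.5 times) and 53 moved. The sign of the 12 median fold changes among them is fixed by the choice of called regions. Leaving out the flanks of region-free stretches and keeping regions with peaks of both lists were chosen after seeing the data. The share of broad regions at gene starts was not run.

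With a width of at least 1000, 2000 or 3000 bp the number of regions was 9452, 1062 or 175. The share higher in ubiquitylated H2A.Z was then 28.2, 40.1 or 50.9%, the share higher in total H2A.Z 12.4, 4.99 or 2.86%, and the share of called regions higher in ubiquitylated 69.4, 88.9 or 94.7%. At the same widths, peaks of both lists lay in 85.7, 93.0 or 95.4% of regions. The outer 10 Mb held 52.8, 63.8 or 76.6%, and the median distance to the nearest region was 243, 177 or 148 bp. The median share of bases under ubiquitylated peaks only was 7.82, 13.9 or 23.8%. Under total peaks only it was 1.49% at 2000 and 1.35% at 3000 bp, and under both 72.9% at 1000 and 70.4% at 3000 bp. Medians from the authors' deposited table (log2) were 0.49 and -0.50 at 1000 bp, and 0.45 and -0.43 at 3000 bp, the last over 5 regions.

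With peaks of an IDR of at most 0.01, both forms lay in 78.7% of regions, the median shares of bases were 20.8% (ubiquitylated only), 0.938% (total only) and 62.0% (both), and the median distance was 246 bp. With a single peak of at least 1500 bp required, 36.3% were higher in ubiquitylated, both forms lay in 89.1%, and the shares of bases were 1.20% (total only) and 76.8% (both). At an FDR of at most 0.01, 26.8% were regions with more ubiquitylated (background 5.16%) and 6.81% with more total H2A.Z (background 7.41%), with medians of 0.51 and -0.49 in the authors' deposited table. With a change of at least 2-fold, 0.459% were higher in ubiquitylated and 0% the other way, so 100% of 13 called regions were higher in ubiquitylated. Without the outer 10 Mb the shares were 21.7 and 17.7%, and 55.0% of called regions. With regions of both lists only, 28.5% were higher in ubiquitylated, and 75.9% of called regions. The cause of these shifts was not tested. Depth is unknown, so how far it limits the calls cannot be given.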
